A study of Mus musculus with 12 samples.

Results

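The genes described here license DNA for replication or act where a cell passes into S phase: the helicase subunits Mcm2, Mcm3, Mcm4, Mcm5, Mcm6 and Mcm7, the kinase pair Ccne1 and Cdk2, the primase subunit Prim1 and the clamp loader subunit Rfc2. These 10 genes were chosen by name, with earlier results of these data known. They were joined from gene symbol to Entrez identifier, and all 10 were found among the 27179 genes counted. Bulk RNA of dorsal cortex from C57BL/6 mouse embryos was sequenced in 12 libraries, with 3 in each of 4 groups: Ash2l conditional knockout (cKO) at embryonic day E14.5, Ash2l wild type (WT) at E14.5, Ash2l cKO at E16.5 and Ash2l WT at E16.5. The cKO embryos carry D6-Cre, a recombinase driven by an enhancer that is active in the developing dorsal telencephalon, so Ash2l is removed in the cells that this driver reaches. The labels do not say whether the WT embryos carry the Cre or a floxed allele, and they do not say how many embryos went into a library. Every title holds a number that 1 cKO and 1 WT library of the same age share, and libraries are called A, B and C here in ascending order of that number within an age.

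Replication origins are licensed in G1, when the origin recognition complex with Cdc6 and Cdt1 loads the ring-shaped MCM helicase onto DNA. Cyclin E with Cdk2, together with the Dbf4-dependent kinase Cdc7, then turns loaded rings into active helicases as S phase starts, and primase and the clamp loader open synthesis on the lagging strand. Many of these genes are transcribed late in G1 under E2F factors, and in the embryonic cortex they mark the dividing progenitors of the ventricular and subventricular zones, while neurons have left the cycle. Ash2l belongs to the core of COMPASS, a family of complexes that place methyl groups on histone H3 at lysine 4, and the series asks about its role while the cortex forms.

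Ash2l, the deleted gene, had 48.1, 59.5 and 52.0 CPM (counts scaled to the library's size, with TMM factors) in the E14.5 cKO libraries A, B and C, against 126, 144 and 118 CPM in the E14.5 WT libraries. At E16.5 it had 52.9, 59.6 and 58.6 CPM in cKO and 136, 130 and 136 CPM in WT. The highest value of any cKO library was 59.6 CPM and the lowest of any WT library was 118 CPM, so the genotypes were apart at both ages. The log2 fold change of cKO over WT was -1.28 at E14.5 (SE 0.121, edgeR adjusted p = 0.0124) and -1.20 at E16.5 (SE 0.0683, edgeR adjusted p = 8.19e-04). The counts run over all exons of the gene, and the labels do not give the deleted exons.

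Library totals ran from 14318147 to 24719047 counts. Emx1, a transcription factor of the dorsal telencephalon, was present in every library, with 42.4 to 66.9 CPM in E14.5 cKO, 36.9 to 62.2 CPM in E14.5 WT, 21.8 to 33.8 CPM in E16.5 cKO and 27.2 to 30.3 CPM in E16.5 WT. Summed over 7 dorsal cortex markers, the level was 1520 to 1974 CPM in E14.5 cKO, 1846 to 1988 CPM in E14.5 WT, 1578 to 1858 CPM in E16.5 cKO and 1937 to 2219 CPM in E16.5 WT, with no overlap between the genotypes at E16.5. Library E14.5 cKO A stands apart in its sum over 7 meningeal genes, 369 CPM, while the other E14.5 libraries had 19.0 to 48.9 CPM. It was also the highest over 7 red blood cell genes, with 683 CPM beside 155 to 320 CPM in the other E14.5 libraries. Over 6 endothelial genes it had 183 CPM, beside 72.1 to 115 CPM. Library E14.5 WT B had 308 CPM over 9 ventral and GABAergic markers, where the other E14.5 libraries had 23.1 to 124 CPM. Over 6 choroid plexus markers, E14.5 WT A had 482 CPM and E16.5 WT C had 625 CPM, and the other 10 libraries had 7.90 to 59.2 CPM. All 3 E14.5 cKO libraries carried Xist and all 3 E14.5 WT libraries carried Y-linked transcripts, so embryo sex and genotype cannot be told apart at E14.5. At E16.5 each genotype had 1 library with Xist, cKO C and WT A. The labels do not say that libraries came from separate litters, so a p-value here reflects how far these libraries scatter, and some of that scatter may be technical.

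Promoter windows are shown because the members, which are often grouped as E2F targets, differ in whether E2F-type letters stand near their starts. RefSeq (build GRCm38.p6) gave a window of 300 bases for 8 of the 10 genes, with Mcm4 and Rfc2 left without one. It holds the 250 bases before the start and the 50 bases that begin with the start itself. The E2F search used the 8-letter sequences TTTCCCGC, TTTGGCGC, TTTCGCGC and TTTGCCGC on both strands, and TTTCGCGC and TTTGGCGC can overlap on opposite strands. Capitals mark these matches below, and each sequence is given 5′ to 3′ on the gene's own strand.
Mcm3, chr1:20820263-20820562, minus strand: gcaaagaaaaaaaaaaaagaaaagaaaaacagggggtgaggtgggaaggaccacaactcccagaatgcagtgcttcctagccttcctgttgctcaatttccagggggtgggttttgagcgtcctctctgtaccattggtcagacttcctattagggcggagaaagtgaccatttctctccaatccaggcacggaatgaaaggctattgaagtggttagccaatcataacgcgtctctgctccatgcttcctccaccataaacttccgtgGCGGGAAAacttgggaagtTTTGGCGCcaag
Mcm5, chr8:75109259-75109558, plus strand: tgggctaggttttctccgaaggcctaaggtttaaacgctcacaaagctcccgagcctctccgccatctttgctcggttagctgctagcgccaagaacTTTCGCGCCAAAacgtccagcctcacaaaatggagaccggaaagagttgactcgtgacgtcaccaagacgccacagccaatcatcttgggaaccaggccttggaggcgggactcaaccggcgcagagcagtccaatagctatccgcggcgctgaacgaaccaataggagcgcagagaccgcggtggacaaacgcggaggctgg
Mcm6, chr1:128359656-128359955, minus strand: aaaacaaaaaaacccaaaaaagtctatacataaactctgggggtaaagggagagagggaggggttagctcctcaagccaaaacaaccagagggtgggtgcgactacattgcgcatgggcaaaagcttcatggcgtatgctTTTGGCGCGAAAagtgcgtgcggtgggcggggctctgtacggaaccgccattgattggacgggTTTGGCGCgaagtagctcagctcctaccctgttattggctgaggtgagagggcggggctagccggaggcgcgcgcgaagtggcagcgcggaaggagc
Mcm7, chr5:138171834-138172133, minus strand: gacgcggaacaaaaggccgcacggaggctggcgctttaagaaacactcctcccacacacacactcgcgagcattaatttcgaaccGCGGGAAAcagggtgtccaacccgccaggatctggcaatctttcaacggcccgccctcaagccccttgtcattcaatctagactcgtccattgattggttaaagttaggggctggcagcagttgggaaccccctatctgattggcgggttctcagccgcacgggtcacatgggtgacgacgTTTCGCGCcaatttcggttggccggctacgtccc
Cdk2, chr10:128705002-128705301, minus strand: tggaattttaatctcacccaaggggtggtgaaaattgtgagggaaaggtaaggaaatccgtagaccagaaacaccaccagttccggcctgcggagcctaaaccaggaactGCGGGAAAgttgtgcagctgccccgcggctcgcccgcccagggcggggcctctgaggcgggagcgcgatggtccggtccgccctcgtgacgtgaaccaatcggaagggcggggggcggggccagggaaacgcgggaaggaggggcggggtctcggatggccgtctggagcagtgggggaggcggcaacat
Ccne1, chr7:38107441-38107740, minus strand: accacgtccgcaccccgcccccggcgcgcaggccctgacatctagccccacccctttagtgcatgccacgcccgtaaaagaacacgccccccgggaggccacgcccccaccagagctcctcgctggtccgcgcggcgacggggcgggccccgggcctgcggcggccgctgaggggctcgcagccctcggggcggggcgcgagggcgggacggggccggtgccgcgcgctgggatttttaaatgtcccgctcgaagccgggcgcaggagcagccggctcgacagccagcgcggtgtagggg

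E2F matches stood near 5 of the 8 genes, Mcm3, Mcm5, Mcm6, Mcm7 and Cdk2, and near 2.6% of the 27025 genes with a window of this length in the table. Counted by window, they stood in 5 of 9, since Mcm7 has 2 windows, and in 2.26% of all 32851. Distances are from the start that the RefSeq window was built on, which can differ from the start in the counting annotation. For Mcm3 the counting annotation puts the start at 20820213, outside the window printed. Mcm3 had 2 matches, beginning 19 and 38 bases after the start of its window's transcript. Mcm5 had 2 that overlap on opposite strands 153 and 149 bases before it. Mcm6 had 3 matches, of which 2 overlap 110 and 106 bases before the start and the third lies 47 bases before it. Mcm7 had 2, beginning 165 bases before and 16 bases after the start of the window printed, and none in a second RefSeq window of that gene. Cdk2 had 1 match, 140 bases before its start. Windows with 2 or more matches made up 0.0974% of all windows. Ccne1, Mcm2 and Prim1 had no match to these letters. The CCAAT box, the letters CCAAT on either strand, stood near 7 of the 8 genes, Ccne1 being the exception, and near 41.1% of all genes with a window. A match of letters is a description and not a binding site.

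Between genes, levels were compared as RPKM, which divides by the counted exon length. Mcm7 was the most abundant of the 10 in every group, with 105 ± 19.9 RPKM in E14.5 cKO, 98.6 ± 9.76 RPKM in E14.5 WT, 78.9 ± 7.42 RPKM in E16.5 cKO and 74.5 ± 4.06 RPKM in E16.5 WT (SD, n = 3 each). Mcm6 came next in all 4 groups, with 54.9 ± 18.02, 51.7 ± 3.91, 40.1 ± 5.49 and 39.2 ± 4.20 RPKM in the same order of groups (SD, n = 3 each). Its libraries did not overlap those of Mcm7 in any group. Ccne1 was the least abundant, at 6.77 ± 2.15 RPKM in E14.5 cKO, 4.30 ± 0.378 RPKM in E14.5 WT, 4.47 ± 0.414 RPKM in E16.5 cKO and 2.66 ± 0.515 RPKM in E16.5 WT (SD, n = 3 each), and Cdk2 was the next lowest everywhere. Mcm2, Mcm3, Mcm4, Mcm5, Prim1 and Rfc2 lay between, and neighbours in that order overlapped in their libraries, apart from Mcm6 and Mcm2 in E14.5 WT, Mcm6 and Rfc2 in both E16.5 groups, Rfc2 and Prim1 in E16.5 cKO, and Mcm4 and Cdk2 in all groups except E14.5 cKO. Raw counts behind these levels ran from 79 to 326 for Ccne1 and from 2916 to 5699 for Mcm7.

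**Figure D1:**
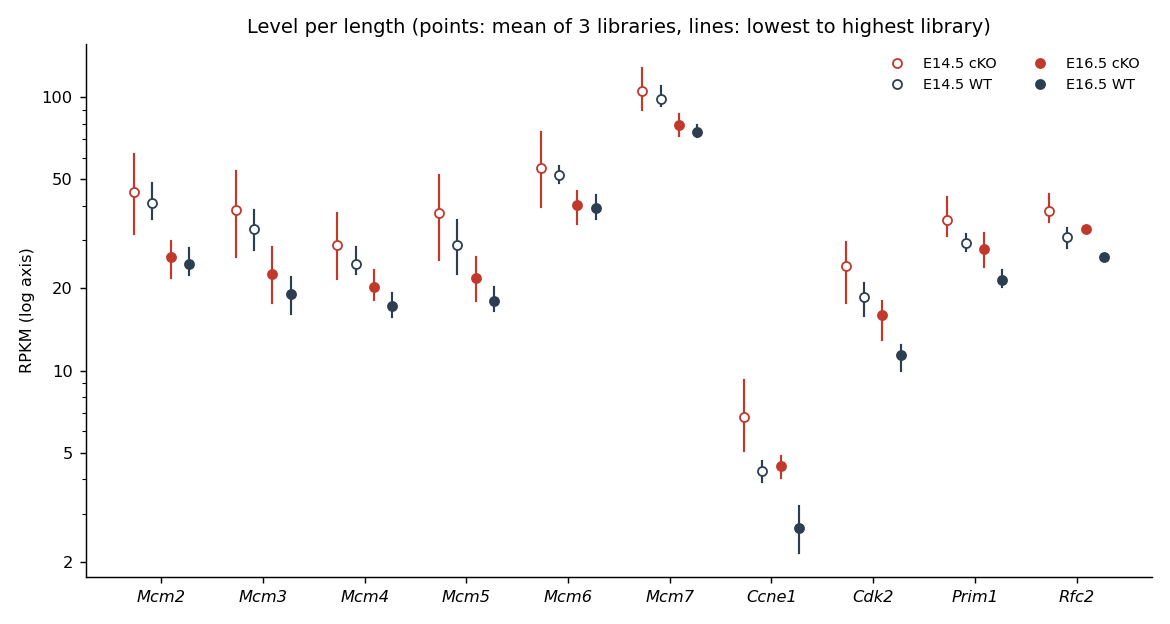
RPKM (log axis) of the 10 genes in the 4 groups, with the mean of 3 libraries as a point and the lowest to highest library as a line; open points are E14.5 and filled points E16.5. Mcm7 stands at the top and Ccne1 at the bottom in each group, from 105 RPKM for Mcm7 in E14.5 cKO to 2.66 RPKM for Ccne1 in E16.5 WT.

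The helicase subunits form rings with each subunit once, and their transcripts were not equally abundant. Of the summed RPKM of the 6 subunits, Mcm7 made up 37.8% ± 1.71 in E16.5 cKO and 38.8% ± 1.77 in E16.5 WT, and Mcm4 made up 9.63% ± 0.401 in E16.5 cKO and 8.93% ± 0.174 in E16.5 WT (SD, n = 3 each). Mcm6 had 18.9% to 19.6% in E16.5 cKO and 20.02% to 20.7% in E16.5 WT, and Mcm5 had 9.84% to 10.9% in E16.5 cKO and 9.17% to 9.51% in E16.5 WT. Mcm4 had 9.19% to 9.97% in E16.5 cKO and 8.73% to 9.06% in E16.5 WT. These 3 pairs of ranges did not overlap at that age, with Mcm6 lower and Mcm4 and Mcm5 higher in cKO, and the shares were looked at after the values were seen and not tested. In CPM, 36.9% of genes tested had no overlap between the genotypes at E16.5. The shares are parts of a whole, so a lower share need not be a lower level. The Mcm6 level itself had a log2 fold change of 0.06 at E16.5. At E14.5 the Mcm4 ranges were apart too, at 9.24% to 9.39% in cKO and 8.58% to 8.96% in WT. Those of the other two overlapped at E14.5, at 17.0% to 18.4% in cKO and 17.7% to 20.01% in WT for Mcm6, and at 10.9% to 12.8% in cKO and 8.98% to 11.2% in WT for Mcm5.

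Between cKO and WT at E16.5, Ccne1, Cdk2, Prim1 and Rfc2 rose in cKO, while none of the helicase subunits passed the test with genotype as the only term. Thus 4 of the 10 genes were called higher and 0 lower at an edgeR adjusted p of 0.05, where 5.98% of the 14865 genes tested were called higher and 9.88% lower. The median log2 fold change of the 10 genes was 0.29, and that of all genes tested was 0.02. All 3 cKO libraries lay above all 3 WT libraries for those 4 genes, a separation seen in 15.8% of genes tested. Because the 10 genes were chosen with earlier results of these data known, these comparisons with all genes are descriptions only.

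Ccne1 (chr7:38097984-38107490 in mm10, minus strand, 12 exons in the counting annotation) encodes cyclin E1, the regulatory partner of Cdk2. It had 7.91, 8.76 and 9.53 CPM in the E16.5 cKO libraries A, B and C, against 4.22, 5.16 and 6.23 CPM in the E16.5 WT libraries. The groups did not overlap, and cKO over WT was 0.77 on the log2 scale (SE 0.1799, edgeR adjusted p = 0.0255), a 1.71-fold difference with a 95% interval of 1.28 to 2.28. Cdk2 (chr10:128697939-128705051, minus strand, 8 exons) encodes the kinase itself. Its level was 31.3, 41.4 and 43.8 CPM in cKO and 24.3, 29.0 and 30.2 CPM in WT, so the lowest cKO library, A, stood just above the highest WT library. Its log2 difference was 0.51 (SE 0.142, edgeR adjusted p = 0.0469), or 1.42-fold (95% interval 1.13 to 1.78).

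Prim1 (chr10:128015215-128030030, plus strand, 13 exons) encodes the catalytic subunit of primase, which lays the RNA primers for DNA synthesis. It had 36.8, 42.6 and 48.8 CPM in the E16.5 cKO libraries and 31.0, 31.8 and 35.7 CPM in the E16.5 WT libraries. The groups were again apart by a small gap, at a log2 difference of 0.41 (SE 0.115, edgeR adjusted p = 0.0492). Rfc2 (chr5:134582690-134598328, plus strand, 11 exons) encodes a small subunit of the complex that loads the sliding clamp. It had 50.6, 49.0 and 50.3 CPM in cKO and 38.4, 40.0 and 39.8 CPM in WT, the tightest groups of the 10 genes. Its log2 difference was 0.37 (SE 0.0697, edgeR adjusted p = 0.0117), or 1.30-fold (95% interval 1.16 to 1.45). In the authors' deposited table, whose log2 ratio runs WT over knockout and so has the opposite sign, the same 4 genes had adjusted p-values of 0.00473, 0.0164, 0.0287 and 0.00121 in the order Ccne1, Cdk2, Prim1 and Rfc2, and the helicase subunits had 0.188 to 0.846.

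These 4 calls stand close to the threshold. Without library cKO B, cKO C or WT A, 1 member was called, which was Rfc2 each time, without WT B none was called (Rfc2 adjusted p = 0.0532), and without WT C there were 2, Ccne1 and Rfc2. Without cKO A, 5 were called, with Mcm5 added (log2 fold change 0.43, edgeR adjusted p = 0.0324). Over all 6 omissions the log2 fold change stayed between 0.64 and 0.94 for Ccne1, 0.42 and 0.64 for Cdk2, 0.31 and 0.50 for Prim1 and 0.35 and 0.39 for Rfc2.

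Among the helicase subunits, Mcm3, Mcm4 and Mcm5 had larger values than Mcm2, Mcm6 and Mcm7. Mcm5 (chr8:75109528-75128439, plus strand, 17 exons) had 61.4, 73.5 and 89.2 CPM in the E16.5 cKO libraries and 56.3, 58.7 and 69.2 CPM in the E16.5 WT libraries. Library cKO A lay among the WT values, so the groups overlapped, at a log2 difference of 0.31 (SE 0.138, edgeR adjusted p = 0.169). Mcm4 (chr16:15623897-15637400, minus strand, 16 exons) had 65.2, 68.3 and 83.6 CPM in cKO and 56.2, 59.7 and 69.1 CPM in WT, with a log2 fold change of 0.26 (SE 0.115, edgeR adjusted p = 0.169). Mcm3 (chr1:20803014-20820213, minus strand, 17 exons) had 51.0, 63.0 and 81.8 CPM in cKO and 46.3, 55.0 and 63.7 CPM in WT, with a log2 fold change of 0.27 (SE 0.177, edgeR adjusted p = 0.331). In each of these genes library A was the lowest and library C the highest in both genotypes.

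Mcm6 (chr1:128331591-128359656, minus strand, 17 exons) had the smallest difference. Its level was 99.8, 118 and 132 CPM in the E16.5 cKO libraries and 104, 109 and 127 CPM in the E16.5 WT libraries, with groups that overlap over most of their range. The log2 difference was 0.06 (SE 0.114, edgeR adjusted p = 0.746), and the 95% interval runs from a 0.871-fold to a 1.26-fold level. Mcm2 (chr6:88883474-88898780, minus strand, 16 exons) had 73.8, 89.7 and 100.2 CPM in cKO and 75.1, 78.0 and 94.5 CPM in WT, a log2 fold change of 0.12 (SE 0.128, edgeR adjusted p = 0.574). Mcm7 (chr5:138164589-138171862, minus strand, 15 exons) had 173, 186 and 208 CPM in cKO and 175, 171 and 189 CPM in WT, a log2 fold change of 0.11 (SE 0.0794, edgeR adjusted p = 0.381). The 95% intervals reach 1.33-fold for Mcm2 and 1.23-fold for Mcm7, and increases up to that size lie within the counting and replicate error of these libraries.

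At E16.5 the deviations of libraries that share a title number were correlated at 0.279, 0.209 and 0.111 for A, B and C. An unmatched pair with cKO B reached 0.107, so the pairing is only weakly marked. Comparing within numbers changed the result for the helicase, and it holds only if the numbers do pair the libraries. With the number as a block in the edgeR fit, 7 of the 10 genes were called higher, against 14.3% of all genes tested called higher and 17.9% called lower. The added genes were Mcm3 (log2 fold change 0.26, edgeR adjusted p = 0.0112), Mcm4 (0.26, adjusted p = 0.00720) and Mcm5 (0.30, adjusted p = 0.00524). Within numbers, the log2 ratio of cKO over WT was 0.14, 0.20 and 0.36 for Mcm3 in pairs A, B and C, 0.21, 0.19 and 0.27 for Mcm4, and 0.12, 0.33 and 0.37 for Mcm5, above 0 in 3 of 3 pairs each. Mcm2, Mcm6 and Mcm7 were above 0 in 2 of 3 pairs, with pair A below 0 in each, and were not called with the block (edgeR adjusted p = 0.160, 0.393 and 0.0886). The 4 genes called without the block were called with it too, at edgeR adjusted p-values of 0.00315 for Ccne1, 8.94e-04 for Cdk2, 0.00293 for Prim1 and 0.00302 for Rfc2.

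**Figure D2:**
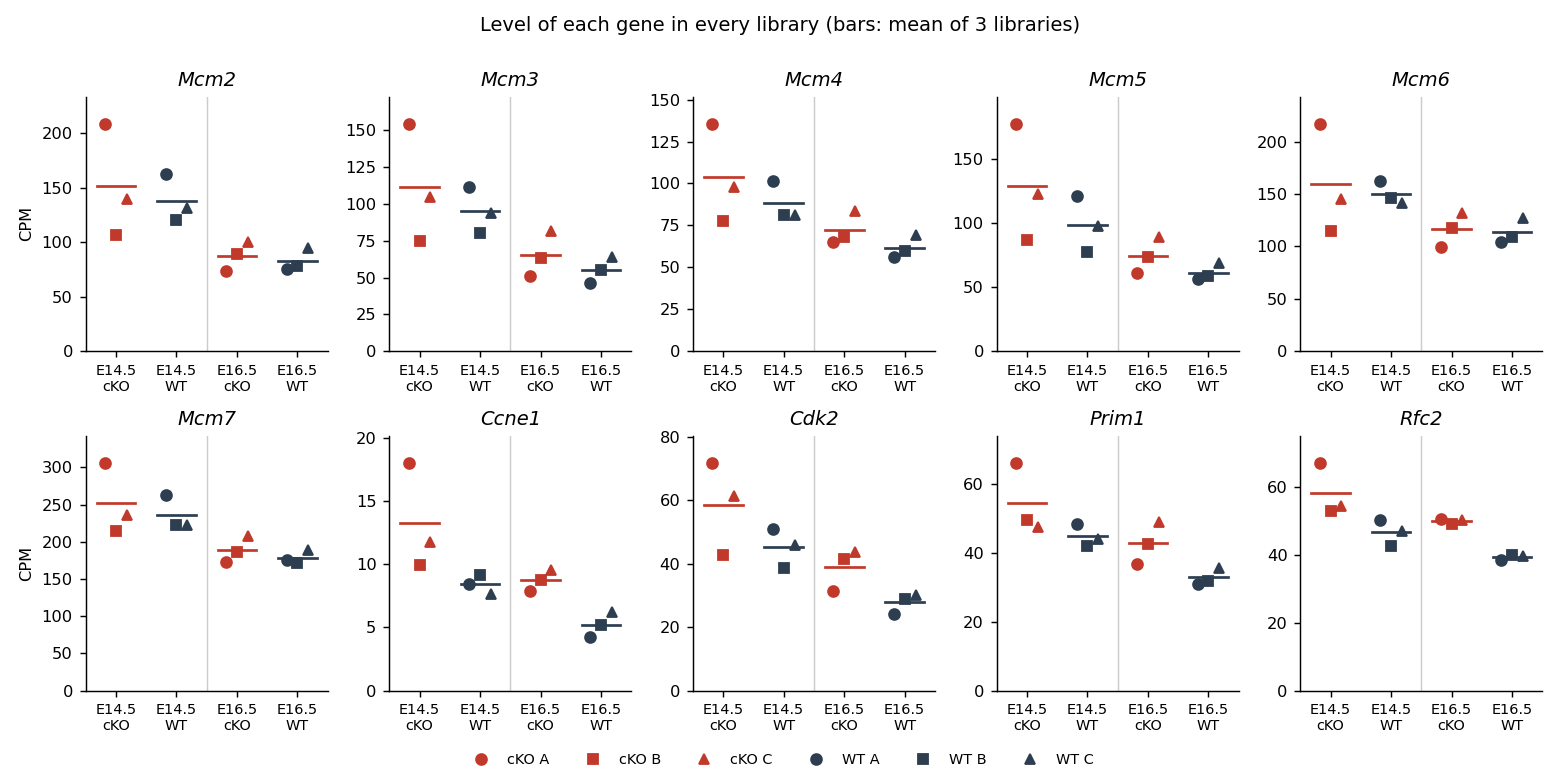
CPM of each gene in every library, with cKO in red, WT in dark blue, marker shapes for libraries A, B and C, and a bar at the mean of 3 libraries. At E16.5 the cKO points of Ccne1, Cdk2, Prim1 and Rfc2 all lie above the WT points, as with 7.91 to 9.53 CPM against 4.22 to 6.23 CPM for Ccne1, and at E14.5 library cKO A is the highest of 6 for all 10 genes.

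Cell type markers are given beside these values. Of 12 neuronal markers, 7 fell in E16.5 cKO and 0 rose, and their summed level was 5236 to 5507 CPM in cKO and 7053 to 7892 CPM in WT, with no marker of the list under 1 CPM in a group. With the replicate block 11 of them were lower. Of 10 apical progenitor markers, 3 rose, Hes5 (log2 fold change 0.68, edgeR adjusted p = 0.0412), Nes (0.46, adjusted p = 0.0486) and Hopx (0.82, adjusted p = 0.00976), and their sum was 1431 to 1946 CPM in cKO and 1342 to 1694 CPM in WT. Not all of that list had values above 0: Slc1a3, a glutamate transporter of radial glia, was at -0.32 (adjusted p = 0.0646) and Prom1 at -0.47 (adjusted p = 0.353). With the replicate block 5 of the 10 were higher and 2 lower, those same 2 genes. Of 8 intermediate progenitor markers none was called, 2 had values above 0, 2 were lower with the block, and their sum was 462 to 747 CPM in cKO and 653 to 822 CPM in WT. Of the 7 dorsal cortex markers 0 rose and 1 fell, and with the block 1 was higher and 3 lower. Of 12 mitosis genes, 0 rose and 1 fell, Plk1, a mitotic kinase (log2 fold change -0.77, edgeR adjusted p = 0.0397), and their sum was 1029 to 1792 CPM in cKO and 1036 to 1429 CPM in WT. Most of that list went the other way from Plk1, with 9 of the 12 above 0 and a median log2 fold change of 0.25. With the replicate block, 5 mitosis genes were called higher and 3 lower. What part such shifts have in the values of the 10 genes was not tested. In bulk RNA, a larger share of progenitors and more of a transcript in each progenitor cannot be told apart.

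At E14.5 none of the 10 genes passed the test. Their log2 fold changes of cKO over WT were all above 0, from 0.09 for Mcm6 and Mcm7 to 0.66 for Ccne1, with a median of 0.26 for the 10 and 0.03 for all genes tested. The count was 0 of 10 called higher, where 0.352% of the 14788 genes tested were called higher, and 2 of the 10 had an unadjusted p under 0.05, as did 2989 of all genes. DESeq2 called 0 as well.

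Ccne1 again had the largest difference, with 17.99, 9.96 and 11.8 CPM in the E14.5 cKO libraries A, B and C and 8.44, 9.14 and 7.66 CPM in the E14.5 WT libraries. The groups did not overlap, at a log2 difference of 0.66 (SE 0.230, edgeR adjusted p = 0.175). Rfc2 had 67.1, 53.1 and 54.4 CPM in cKO and 50.2, 42.7 and 47.0 CPM in WT, also without overlap, with a log2 fold change of 0.32 (SE 0.122, edgeR adjusted p = 0.204). These were the 2 members of 10 with all cKO above all WT libraries, and 12.6% of the genes tested were separated in that way. Cdk2 (log2 fold change 0.38, SE 0.194) and Prim1 (0.28, SE 0.144) had edgeR adjusted p-values of 0.327 and 0.326.

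For 5 of the 6 helicase subunits the sign of the E14.5 value rests on 1 library. Mcm2 had 209, 107 and 140.1 CPM in the cKO libraries A, B and C and 163, 121 and 131 CPM in the WT libraries, so cKO held both the highest and the lowest value. Mcm6 had 217, 115 and 146 CPM in cKO and 163, 146 and 141 CPM in WT. Library cKO A was the highest of the 6 E14.5 libraries for 10 of the 10 genes, and it is the library with 369 CPM of meningeal genes. Its sum over the 12 mitosis genes was 3177 CPM, while the other cKO libraries had 2040 and 2310 CPM and the WT libraries 1932 to 2491 CPM, and its sum over 12 neuronal markers was 2795 CPM, with 4301 and 4743 CPM in the other cKO libraries and 4596 to 6814 CPM in the WT libraries. Without cKO A the log2 fold changes were -0.17 for Mcm2, -0.09 for Mcm3, -0.01 for Mcm4, -0.21 for Mcm6 and -0.07 for Mcm7, so the sign turned for 5 of the 6 subunits. Mcm5, at 0.39 with all libraries, kept 0.085 without cKO A. Ccne1 kept 0.37 and Rfc2 kept 0.20 without it. The part that the makeup of this library has in these values was not tested.

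**Figure D3:**
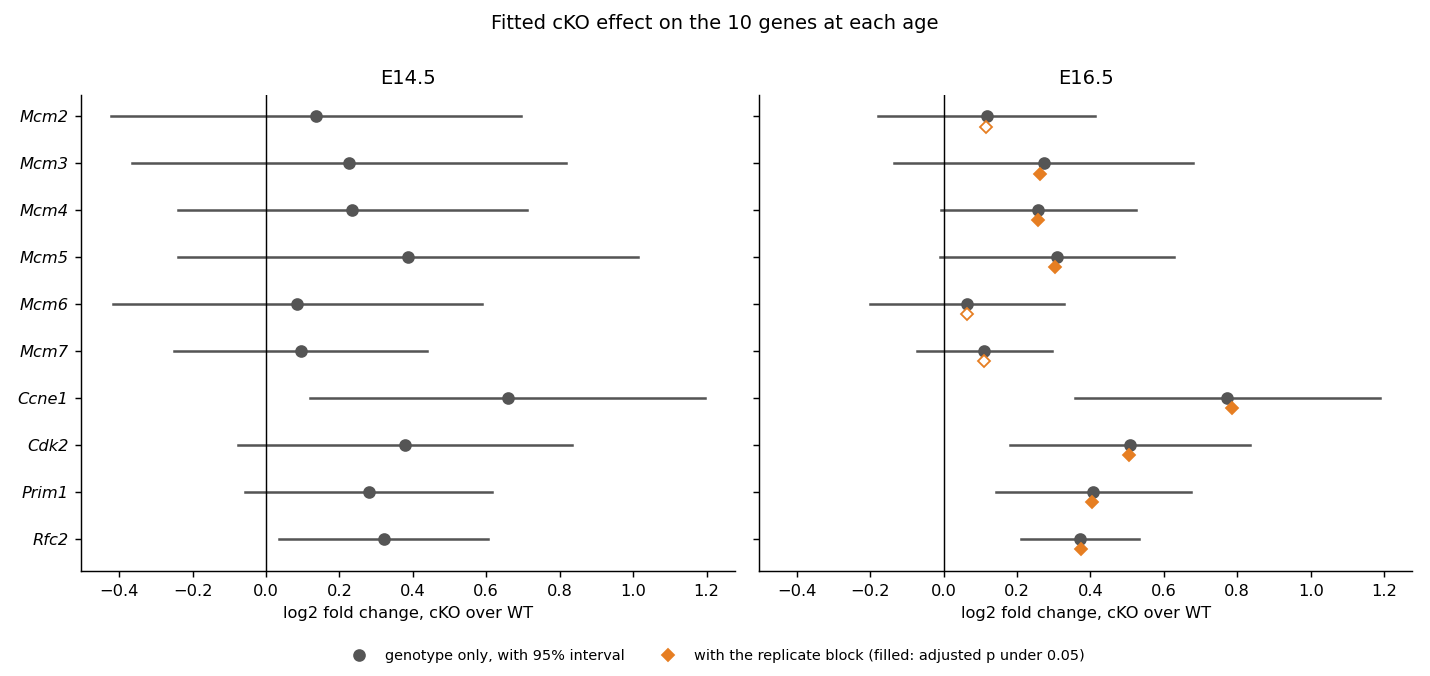
Log2 fold change of cKO over WT for the 10 genes at E14.5 (left) and E16.5 (right), with dots and 95% intervals from edgeR with genotype as the only term and, at E16.5, diamonds from the fit with the replicate block, filled where the adjusted p was under 0.05. The E16.5 intervals of Ccne1, Cdk2, Prim1 and Rfc2 exclude 0, those of the 6 helicase subunits include it, and 7 diamonds are filled.

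The age difference asks whether the cKO effect changed between the ages. Embryo sex cannot be told apart from genotype at E14.5, so this contrast mixes any effect of sex with the age difference. In an edgeR fit of all 12 libraries the effect at E16.5 minus the effect at E14.5 ran from -0.06 to 0.15 on the log2 scale over the 10 genes, and none was called. No gene of 15338 was called, 0%, and 318 had an unadjusted p under 0.05, while DESeq2 also called 0 and had 367. The 95% intervals of these differences are wide, from -0.51 to 0.78 for Ccne1, so these libraries do not show that the effects were equal.

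Values at the later age were below those at E14.5 for all 10 genes, mostly short of the threshold. The ages were counted and deposited separately, so age and any difference in handling cannot be told apart. Embryo sex differed between the ages too. Every E14.5 cKO library carried Xist but only library C of E16.5 cKO did, and in WT only E16.5 library A did. In WT all 10 genes had E16.5 libraries below every E14.5 library, with log2 fold changes of E16.5 over E14.5 from -0.80 for Mcm3 to -0.25 for Rfc2 and a median of -0.61, where 17.9% of the 15338 genes tested were separated in that way. None was called by edgeR (adjusted p from 0.0565 for Cdk2 to 0.172 for Mcm6), although all 10 had an unadjusted p under 0.05, as did 4252 of all genes in either direction, and 1.39% of the 15338 genes tested were called lower. DESeq2 called 7 of the 10 lower in WT, and without E14.5 WT B edgeR called 4. Of all genes, DESeq2 called 1012 of 14388 lower in WT, and edgeR called 0 to 1103 with 1 library omitted. In cKO the log2 fold changes ran from -0.75 for Mcm2 and Mcm5 to -0.18 for Rfc2 with a median of -0.51, and Mcm2 alone was called lower by edgeR (-0.75, SE 0.206, adjusted p = 0.0488), where 3.71% of the genes tested were called lower. DESeq2 called 6 in cKO, and edgeR called 8 without E14.5 cKO B, 2 without E16.5 cKO C and 0 without any other single cKO library. Over all genes in cKO, DESeq2 called 1530 of 15201 lower, and edgeR called 33 to 1799 with 1 library omitted. For Mcm2, the E16.5 cKO values of 73.8 to 100.2 CPM lay below the E14.5 cKO values of 107 to 209 CPM. Mcm2, Mcm7, Ccne1 and Rfc2 had no overlap between the ages in cKO, and the other 6 genes did. Of all genes tested, 17.3% had every E16.5 cKO library below every E14.5 cKO library. Of the 99 other replication and G1/S genes described further on, 15 fell with age in cKO and 2 in WT, Ccna2 (-0.91, edgeR adjusted p = 0.0489) and Cdk4 (-0.50, adjusted p = 0.0408). The mitosis genes summed to 1029 to 1792 CPM in E16.5 cKO and 2040 to 3177 CPM in E14.5 cKO, and to 1036 to 1429 CPM in E16.5 WT and 1932 to 2491 CPM in E14.5 WT.

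The helicase level can be set beside the mitosis genes in each library. Summed over Mcm2 to Mcm7, the level was 1199, 675 and 848 CPM in the E14.5 cKO libraries A, B and C and 924, 727 and 769 CPM in the E14.5 WT libraries. At E16.5 it was 524, 598 and 694 CPM in cKO and 513, 531 and 613 CPM in WT. In each group the library with the highest mitosis sum also had the highest helicase sum, and at E16.5 both sums had their lowest value in library A of each genotype. Set against that helicase sum, Ccne1 had 1.501%, 1.47% and 1.39% in the E14.5 cKO libraries and 0.913%, 1.26% and 0.997% in the E14.5 WT libraries. At E16.5 it had 1.51%, 1.47% and 1.37% in cKO and 0.822%, 0.971% and 1.02% in WT. All 6 cKO libraries, E14.5 cKO A included, therefore lay above all 6 WT libraries in this ratio, which was chosen after the values were seen and is given with no test. How many of all genes separate in such a ratio was not computed.

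Against the same sum at E16.5, Prim1 had 7.02% to 7.12% in cKO and 5.82% to 6.03% in WT, and Cdk2 had 5.98% to 6.93% in cKO and 4.73% to 5.45% in WT, with no overlap in either gene. Rfc2 had 7.24% to 9.65% in E16.5 cKO and 6.49% to 7.52% in E16.5 WT, which overlap. At E14.5 the Prim1 and Rfc2 ratios of the genotypes overlapped, and those of Cdk2 did not, with 5.98% to 7.22% in cKO and 5.30% to 5.96% in WT. The share of all genes that separate in these ratios was not computed. In plain CPM, 36.9% of genes tested had no overlap between the genotypes at E16.5 and 27.3% at E14.5.

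**Figure D4:**
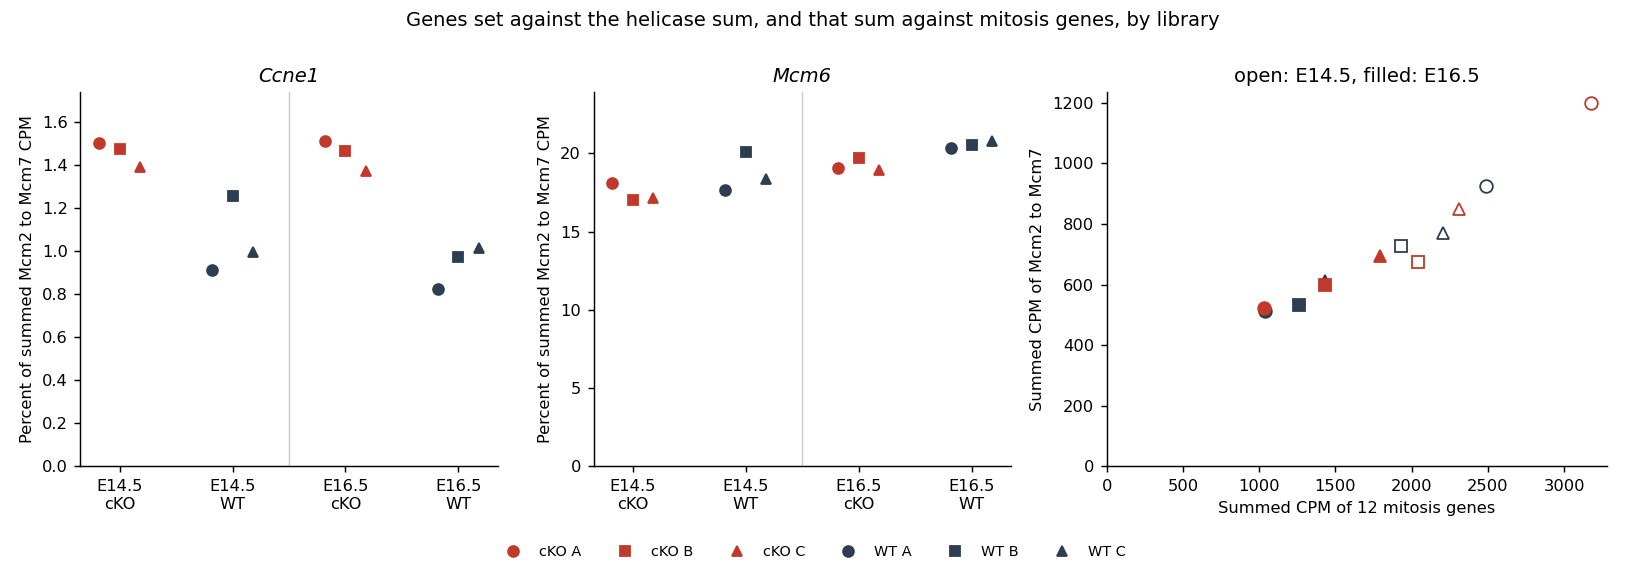
Ccne1 and Mcm6 as a percent of the summed CPM of Mcm2 to Mcm7 in each library (left and middle), and that sum against the summed CPM of 12 mitosis genes (right, open for E14.5 and filled for E16.5), with cKO in red, WT in dark blue and marker shapes for libraries A, B and C. Ccne1 takes 1.37% to 1.51% in the 6 cKO libraries and 0.822% to 1.26% in the 6 WT libraries, and library E14.5 cKO A lies at the upper right with 1199 CPM of helicase and 3177 CPM of mitosis genes.

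The wider replication and G1/S pathway was followed in lists that do not hold the 10 genes. Those lists, too, were chosen with earlier results of these data known, so their shares are descriptions only. Of 101 listed genes 99 passed the low-count filter. At E16.5, 7 of the 99 rose in cKO and 1 fell, and 72 had a log2 fold change above 0, with a median of 0.18 beside 0.02 for all genes. The share called higher, 7.07%, is near the 5.98% of all genes, so it is not a result about the pathway, and 1.01% were called lower beside 9.88% of all genes. With the replicate block 32 were higher (32.3%, beside 14.3% of all genes) and 4 lower (4.04%, beside 17.9%). At E14.5, 0 of the 99 were called higher, beside 0.352% of all genes, and 0 lower, beside 1.66%. There 83 were above 0, and the median was 0.19 beside 0.03 for all genes.

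Of the 7 list genes called higher at E16.5, 4 were among the 14 origin firing genes tested. Counts by list, here and below, stand beside 5.98% of all genes called higher and 9.88% lower. With the block those shares are 14.3% and 17.9%. The lists are small, and their counts are descriptions only. Recql4, a helicase-family protein needed to activate the replicative helicase, rose by 0.75 on the log2 scale (edgeR adjusted p = 0.0198), and Donson, which helps assemble the active helicase, rose by 0.35 (adjusted p = 0.0209). Cdc7, the kinase that phosphorylates the MCM ring, rose by 0.33 (adjusted p = 0.0213). The fourth, Mtbp, which works with Ticrr in loading Cdc45, rose by 0.67 (adjusted p = 0.0229) and is named because the count is small. With the block 7 of the 14 were higher and 0 lower.

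Licensing factors upstream of the helicase gave 0 of 10 calls at E16.5, and Orc1, the origin recognition subunit, had a log2 fold change of 0.46 (edgeR adjusted p = 0.217) there and 0.67 (adjusted p = 0.194) at E14.5. With the block 3 of the 10 were higher and 1 lower. The lower one was Gmnn, geminin, the inhibitor of Cdt1 (log2 fold change -0.51, edgeR adjusted p = 0.0354 with the block), and Cdt1 was among the higher ones (0.34, adjusted p = 0.0306 with the block). Both were named after their values were seen.

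At the fork itself, 2 of the 14 clamp, clamp loader and lagging-strand genes rose at E16.5: Rfc1, the large clamp loader subunit (0.45, edgeR adjusted p = 0.0211), and Rpa1, which coats single-stranded DNA (0.37, adjusted p = 0.0312). With the block 6 of the 14 were higher. None of the 11 DNA polymerase genes was called, with Pola1, the catalytic subunit of the polymerase that works with primase, at 0.41 (edgeR adjusted p = 0.0826), and 3 were higher with the block. Of the other lists, E2F and pocket proteins had 1 of 13 called, Rbl2, a relative of the retinoblastoma protein (0.35, adjusted p = 0.0139). With the block 4 of the 13 were higher and 0 lower. The inhibitors of cyclin-dependent kinases had 1 of 5 called, Cdkn1c, which fell by 0.42 (adjusted p = 0.0410), while 3 of the 5 were above 0. Cdkn1a of that list was at 0.72 (edgeR adjusted p = 0.0802). With the block Cdkn1a was called higher (0.70, edgeR adjusted p = 0.0428) and Cdkn1c lower. Cdkn1a was named after its values were seen.

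No call came from the remaining lists at E16.5. Cyclins and kinases of G1/S other than Ccne1 and Cdk2 had 0 of 10, with a median of -0.08, and Ccne2, which encodes the second cyclin E, had a log2 fold change of -0.30 (edgeR adjusted p = 0.663). Nucleotide supply had 0 of 7, with Rrm1, a ribonucleotide reductase subunit, at -0.09 (adjusted p = 0.718). Replication checkpoint had 0 of 6, with Chek1 at 0.38 (adjusted p = 0.392), chromatin assembly had 0 of 6, with Chaf1a at 0.16 (adjusted p = 0.414), and the other MCM-like genes had 0 of 3, with Mcm8 at 0.43 (adjusted p = 0.117). With the block these lists gave 2, 1, 3, 1 and 1 higher, and 1, 1, 0, 0 and 0 lower.

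The pathway counts at E16.5 also turn on single libraries. Without cKO A 27 of the listed genes were called higher, without cKO B or WT A 0, without WT B 2, and without cKO C or WT C 6 each. None of the 99 was called lower without cKO A, cKO B, WT A, WT B or WT C.

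**Figure D5:**
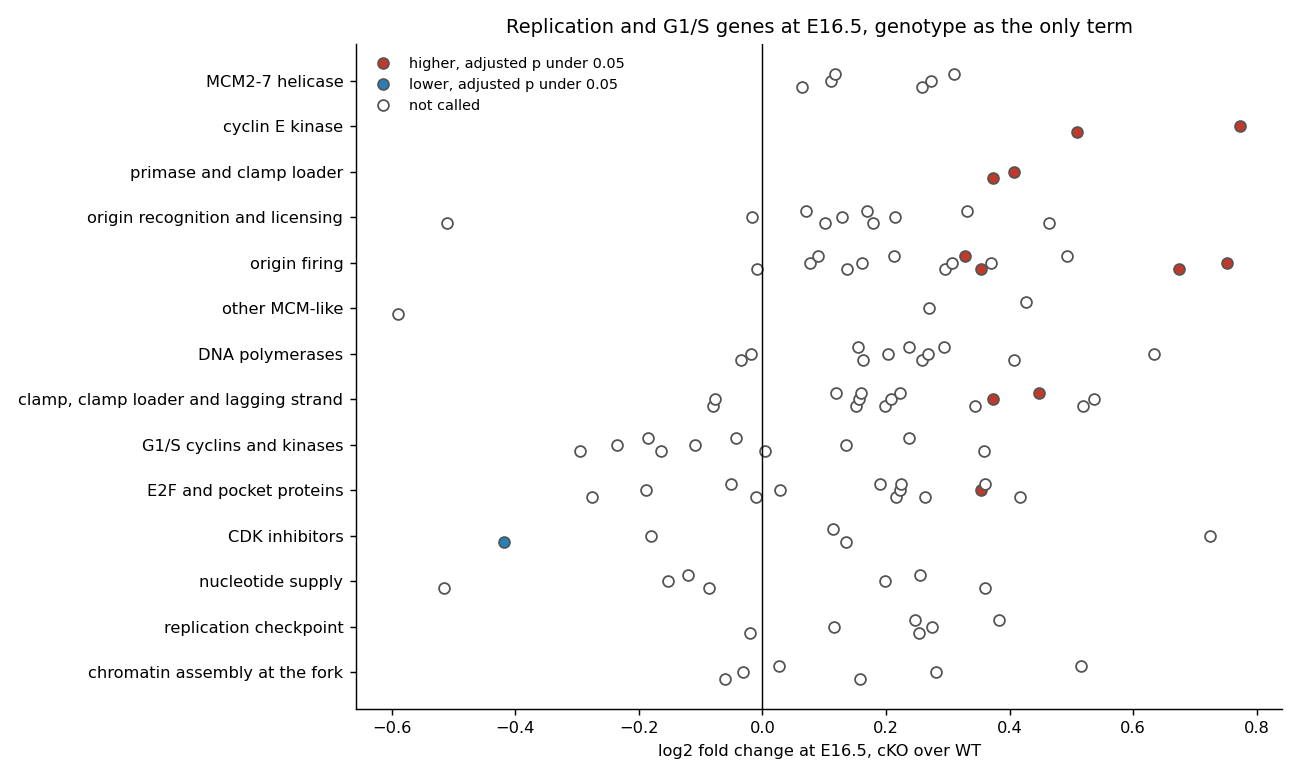
Log2 fold change of cKO over WT at E16.5 for the genes of each replication and G1/S list, with the 10 genes in the top 3 rows; red and blue fills mark an edgeR adjusted p under 0.05 with genotype as the only term. The 4 called members and the 7 called list genes lie to the right of 0, and Cdkn1c lies to the left at -0.42.

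A gene on the opposite strand starts close to Mcm4 and another close to Mcm7, and both neighbours rose at E16.5. Prkdc, the DNA-dependent protein kinase of end joining, starts 466 bases from Mcm4 on the opposite strand. It had 146, 154 and 167 CPM in the E16.5 cKO libraries and 93.5, 120.0 and 115 CPM in the E16.5 WT libraries, a log2 fold change of 0.54 (SE 0.103, edgeR adjusted p = 0.0126), where Mcm4 had 0.26 and was called with the replicate block but not without it. Without cKO B the call was lost (edgeR adjusted p = 0.0535). Ap4m1, an adaptor protein subunit of vesicle sorting, starts 159 bases from Mcm7 on the opposite strand. It had 47.3, 47.1 and 43.1 CPM in cKO and 33.8, 32.7 and 32.2 CPM in WT, a log2 fold change of 0.51 (SE 0.0792, edgeR adjusted p = 0.00603), where Mcm7 had 0.11. The difference between a gene and its neighbour was not tested. At E14.5 neither was called, with 0.42 for Prkdc (edgeR adjusted p = 0.145) and 0.28 for Ap4m1 (adjusted p = 0.159). Neither shares exon bases with a member, and counting used strand. An opposite-strand gene with no symbol overlaps 510 exon bases of Mcm2 and was near 0 CPM in all groups.

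The genes whose levels most resembled those of the members across the 12 libraries were taken from 11062 genes outside all lists with a mean of at least 5 CPM. By Pearson's r with the mean standardised log2 CPM of the 10 genes, the 5 most alike were Cdca8 (0.991) and Ckap2l (0.987), which act on the mitotic spindle, Rcc1 (0.991), which drives nuclear import through Ran, Kif2c (0.989), a kinesin that depolymerises microtubules, and Ttf2 (0.987). The 12 libraries span both ages and genotypes and share their library scaling, so these values describe likeness and carry no p. Cdca8 had 34.5 CPM on average in E16.5 cKO and 26.0 CPM in E16.5 WT, with a log2 fold change of 0.44 (edgeR adjusted p = 0.0371), and the other 4 were not called.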

How the data were processed

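Counted fragments per gene from the 12 libraries were analysed. The deposited values are raw counts that featureCounts 1.5.2 made in reverse-strand mode over the mm10 RefSeq annotation, with 25 bases as the smallest overlap, per the file headers; reads were aligned with STAR 2.5.2b, per the submitters' processing notes. The authors also deposited log2 ratios of WT over knockout with p-values, named for DESeq2 1.14.1 in those notes. Its 12 columns of library values were not used. RPKM used the deposited exon length.

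The main test was edgeR 4.0.16 (R 4.3.3, limma 3.58.1): TMM, filterByExpr, a robust quasi-likelihood F test, and p-values adjusted by Benjamini-Hochberg across every gene in the fit, at 0.05. Each age was fitted on its 6 libraries, and age contrasts on all 12. SE is the size of the log2 fold change over the square root of F. DESeq2 1.42.0, other scalings, no filter, a replicate block, embryo sex and omitted libraries were alternatives. The main edgeR fits of the cKO effect at each age and of the age change in WT were tested on simulated counts. The alternatives and the age difference were not tested in that way. Same-numbered libraries were taken as paired at an age where every correlation of their deviations was above 0.1. This held at E16.5 over 14865 genes (correlations 0.279, 0.209 and 0.111 for A, B and C). The highest correlation of each E16.5 cKO library with a WT library of another number was -0.138, 0.107 and -0.005. An unmatched pair with cKO B therefore also passed 0.1, and the cut separates matched from unmatched pairs by a narrow margin. At E14.5 pairs A and B passed and pair C did not (0.272, 0.304 and -0.003), so that age was not taken as paired. Figures were drawn with matplotlib.

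The members and lists were chosen with earlier results of these data known. Named list genes are up to 3 called genes per list by p at each age, or the first listed gene where none was called, plus genes starting within 1000 bases of a member or sharing exon bases. Same-group libraries differed by more than sampling noise (chi-square per degree of freedom 9.06 to 48.3), so none was treated as a copy. 1 gene of the dorsal cortex list is not reported here and was left out of its sum.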

Additional observations from a re-analysis of the deposited data

How the results depend on the processing

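At E16.5 the number of the 10 genes called higher was 4, and it became 7 with the replicate block, 2 with all 12 libraries in 1 fit, 2 with embryo sex as a term in that fit, and 0 to 5 with 1 library omitted. RLE scaling and the fit without robust estimation gave 3, losing Prim1 (edgeR adjusted p = 0.0521 and 0.0508), and the other settings gave 4. The replicate block lost none of these calls. At E14.5, 0 members were called under every setting run, the block included.

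For the age change, members called lower in WT numbered 0, with 7 by DESeq2 and 0 to 4 with 1 library omitted. In cKO they numbered 1, with 6 by DESeq2, 0 without a filter on low counts and 0 to 8 with 1 library omitted. The age difference of the cKO effect had 0 members called under all 19 settings, and its sign turned under at least 1 of them for 9 of the 10 genes.

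Signs turned at E14.5 when WT B and cKO A, the libraries with the high ventral and meningeal sums, were both left out: Mcm2 -0.25, Mcm3 -0.19, Mcm4 -0.0635, Mcm5 -0.0605, Mcm6 -0.22 and Mcm7 -0.11. With 1 library omitted the log2 fold change ran from -0.17 to 0.32 for Mcm2, -0.0858 to 0.43 for Mcm3, -0.0094 to 0.39 for Mcm4, -0.21 to 0.26 for Mcm6 and -0.071 to 0.18 for Mcm7, and at E16.5 from -0.0247 to 0.17 for Mcm6. The causes were not tested.

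Counts over all genes moved too. At E14.5, 52 were called higher and 245 lower, with 24 to 331 and 104 to 1053 over the other settings and 1 to 56 and 4 to 298 with 1 library omitted. At E16.5, 889 were higher and 1469 lower, with 653 to 2132 and 916 to 2658 over the other settings and 249 to 1050 and 731 to 1805 with 1 library omitted. The age change in WT had 213 lower, with 130 to 1012 over other settings and 0 to 1103 with 1 library omitted, and that in cKO had 569 lower, with 353 to 1530 and 33 to 1799. Pathway genes called higher at E16.5 numbered 7, with 4 to 32 over other settings and 0 to 27 with 1 library omitted, and at E14.5 0, with 0 to 5.

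The low counts of Ccne1, 79 to 326 a library, and 3 libraries per group limit the precision. The fit with embryo sex rests at E16.5 on 1 library with Xist per genotype.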
